A study of Mus musculus with 8 samples.

Results

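The genes described here encode 10 ATPases of chromatin remodelers outside the SWI/SNF family. They are Smarca5 and Smarca1 of the ISWI family, Chd1, Chd2, Chd3, Chd4, Chd5, Chd7 and Chd8 of the CHD family, and Ino80. They were chosen by gene symbol from the 28460 genes of the deposited table, all 10 were found there, and all 10 were among the 16059 genes that passed the filter on low counts. RNA was sequenced from cells of mouse testes at postnatal day 12 (P12), from 4 wild-type (Brg1 WT) and 4 conditional Brg1 knockout (Brg1 cKO) samples, all on a mixed strain background. The series' design text calls the 4 samples of a genotype biological replicates. The sources used here name neither the Cre driver nor the deleted part of the gene, so the cells in which the deletion took place cannot be named. Testes were dissociated with enzymes and passed through a sieve, without a sort on a marker being named.

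Remodelers of the SNF2 superfamily use ATP to slide, eject or exchange nucleosomes. Brg1, the product of Smarca4, is an ATPase of SWI/SNF, which opens chromatin by moving and evicting nucleosomes. ISWI enzymes space nucleosomes evenly, Chd3, Chd4 and Chd5 are alternative motors of the NuRD complex, which joins remodeling to histone deacetylation, and Ino80 is the motor of the INO80 complex, which moves nucleosomes and acts on those carrying the histone variant H2A.Z. In the testis Chd5 is known for its role in the chromatin of maturing spermatids, and Chd4 for the maintenance of spermatogonia.

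Of the 10 genes, RefSeq's table for GRCm38.p6 held the sequence around the start site of 6, each from 250 bases before to 50 bases after the start. Those of Chd5, the member with the steepest fall, and of the ISWI pair Smarca5 and Smarca1, whose estimates went opposite ways, are shown 5′ to 3′ on the gene's strand. Capitals mark the GC box, GGGCGG on either strand. Chd5 and Chd4 have 2 entries each, and only the first of each was used here.
Chd5, chr4:152338401-152338700, plus strand: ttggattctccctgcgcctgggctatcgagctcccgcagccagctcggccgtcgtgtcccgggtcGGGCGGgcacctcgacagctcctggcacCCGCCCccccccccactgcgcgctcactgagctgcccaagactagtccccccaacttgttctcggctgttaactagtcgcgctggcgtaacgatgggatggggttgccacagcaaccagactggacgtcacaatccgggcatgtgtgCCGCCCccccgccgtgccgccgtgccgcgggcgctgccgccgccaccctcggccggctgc
Smarca5, chr8:80739410-80739709, minus strand: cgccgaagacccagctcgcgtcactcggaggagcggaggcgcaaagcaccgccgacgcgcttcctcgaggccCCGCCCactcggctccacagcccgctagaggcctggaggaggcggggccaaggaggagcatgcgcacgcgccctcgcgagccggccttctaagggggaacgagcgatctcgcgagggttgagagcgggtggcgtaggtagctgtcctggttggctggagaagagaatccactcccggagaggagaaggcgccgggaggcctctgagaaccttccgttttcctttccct
Smarca1, chrX:47892564-47892863, minus strand: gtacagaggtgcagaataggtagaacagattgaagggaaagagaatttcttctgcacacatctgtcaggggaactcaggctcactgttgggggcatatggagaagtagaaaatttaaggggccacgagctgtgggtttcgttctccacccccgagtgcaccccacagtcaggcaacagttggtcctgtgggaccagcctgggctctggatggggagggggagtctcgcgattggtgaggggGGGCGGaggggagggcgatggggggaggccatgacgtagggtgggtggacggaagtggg

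The Chd5 window held 3 GC boxes, 70.7% G and C, and 32 CpG dinucleotides. The Smarca5 window held 1 GC box and also 32 CpG, whereas that of Smarca1 held 1 GC box and 9 CpG. The median over all promoter windows was 7 CpG, and 32 and 9 CpG stood at percentiles 91.4 and 56.5. All 6 members with an entry had at least 1 GC box, a motif found in 35.7% of the 32851 promoter windows of the table. The CCAAT box, searched as CCAAT on both strands, was in the windows of Smarca1, Chd4, Chd8 and Ino80 and in 37.4% of all windows. Neither TATAAA nor CACGTG was in any of the 6 windows, against 13.6% and 7.15% of all. These matches describe letters in the reference and were not measured in the samples.

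Total estimated counts ran from 20456743 to 32596038 per library, and levels are given as CPM, counts brought to 1 library size with the edgeR TMM factors. Smarca4 checked the labels: it had 337.9 to 356.6 CPM in the 4 Brg1 WT libraries and 110.9 to 129.2 CPM in the 4 Brg1 cKO libraries, and did not overlap. Marker lists of the cell types were counted beside all genes tested, of which 8.79% were called higher and 11.8% lower at an adjusted p under 0.05. Of 12 pan-germ cell genes 3 were called lower, none higher and 9 neither, with a median log2 fold change of -0.35 and overlapping summed levels of 2185 to 2765 CPM in Brg1 WT and 1668 to 2196 CPM in Brg1 cKO. Of 16 meiotic prophase genes 11 were called lower and none higher (1572 to 2246 against 1137 to 1393 CPM), and of 16 Sertoli genes 7 were called higher, 1 lower and 8 neither, with a median of 0.38 and overlapping sums (2535 to 3203 against 3127 to 3822 CPM). Of the spermatogonia genes 8 of 14 undifferentiated and 4 of 8 differentiating ones were called lower and 2 and 1 higher. Of 12 peritubular and stromal genes 2 were higher and 1 lower, and of 9 tested pachytene and spermatid genes 5 were lower, while no Leydig, endothelial or macrophage gene was called. No listed marker of any cell type was at 0 in all libraries, but some were near it. Of the 14 pachytene and spermatid genes listed, Pgk2, Tnp1, Prm1, Prm2 and Acr did not pass the filter on low counts. Prm2 had 0 or 1 estimated count per library. Brg1 WT replicates 1 and 2 stood apart in the 9 tested pachytene and spermatid markers, whose summed level reached 243.3 and 212.1 CPM there against 135.8 to 154.4 CPM in Brg1 WT replicates 3 and 4 and 93.23 to 110.3 CPM in Brg1 cKO.

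Among the 10 ATPase genes 2 fell in Brg1 cKO, Chd5 and Chd7, none rose, and 8 did not pass the test at an adjusted p under 0.05. The test was the edgeR quasi-likelihood test with Benjamini-Hochberg adjustment over all 16059 genes, and every adjusted p below comes from it unless another tool is named. Over all genes tested 20.6% were called, 8.79% higher and 11.8% lower, so that 2 of 10 is a share close to the background. The libraries of the genotypes did not overlap for 3 of the 10, Smarca5, Chd5 and Chd7, against 26% of all genes tested. The median log2 fold change was 0.038 over the 10 and 0.013 over all genes tested. At an unadjusted p under 0.05, 3 of the 10 were lower and 2 higher. Chd5 alone was called when Brg1 WT replicates 1 and 2 were left out together, and DESeq2 called 4, adding Smarca5, lower, and Chd1, higher.

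**Figure D1:**
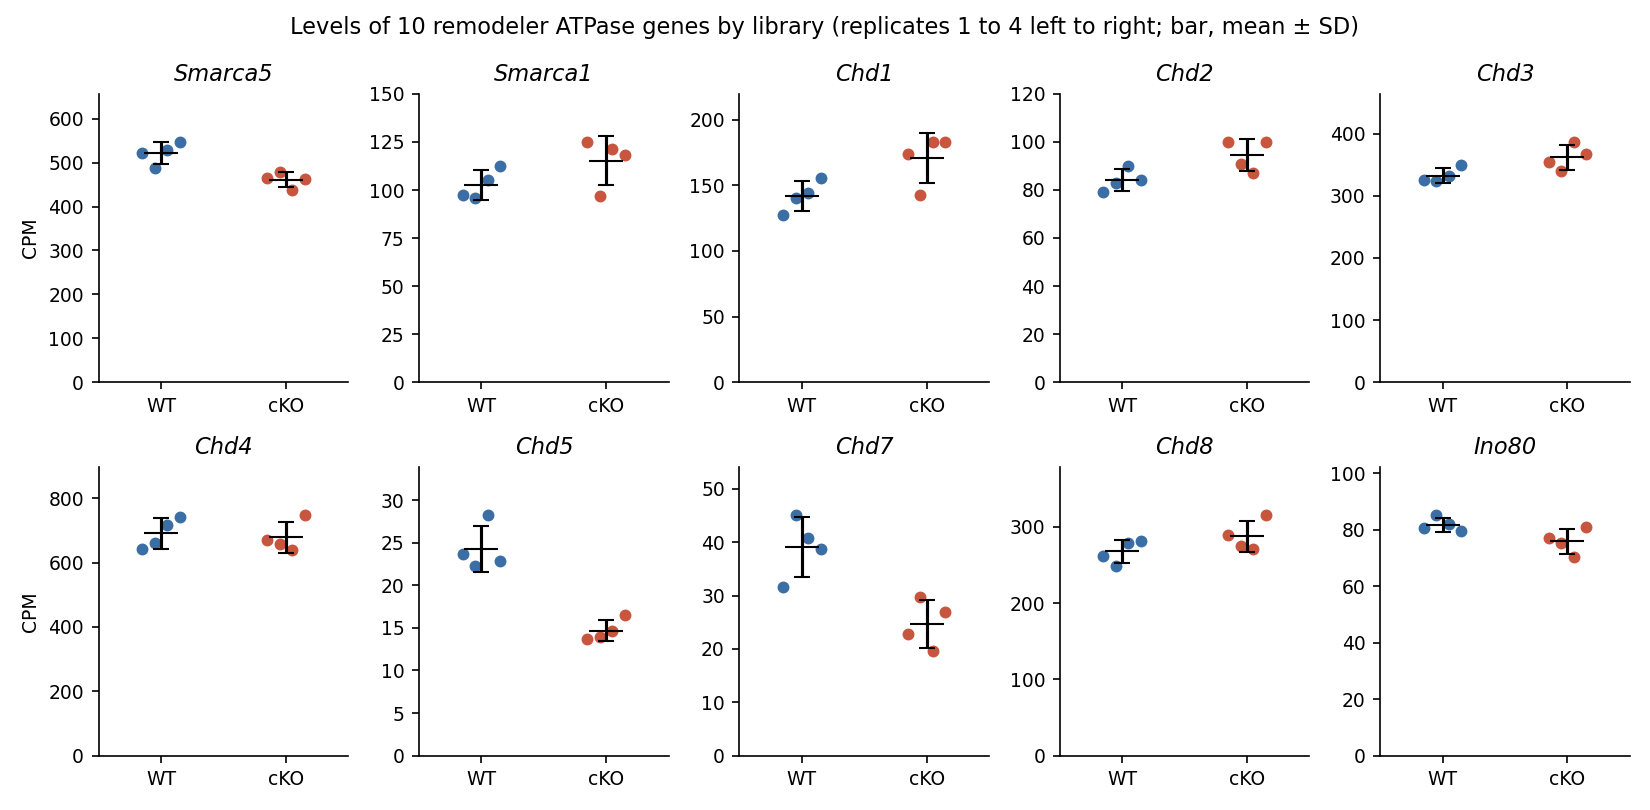
CPM of each ATPase gene (vertical axis, from 0) in the 4 Brg1 WT (blue) and 4 Brg1 cKO (red) libraries, with the mean and SD in black. Chd5 and Chd7 are lower in every Brg1 cKO library than in any Brg1 WT library, Smarca5 is separated by a narrow gap, and the other 7 genes overlap.

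Chd5 encodes a NuRD ATPase best known from neurons and spermatids. In the order of replicates 1 to 4, as for every such series below, it had 23.7, 22.2, 28.2 and 22.8 CPM in Brg1 WT and 13.6, 14.0, 14.7 and 16.5 CPM in Brg1 cKO. Every Brg1 cKO library lay below every Brg1 WT library, and the highest Brg1 WT value, in replicate 3, stood above the 3 others. Mean levels of 24.25 ± 2.73 and 14.7 ± 1.27 CPM (SD, n = 4 each) gave a 1.65-fold fall, with a log2 fold change of -0.72 ± 0.11 (SE) and an adjusted p = 0.0038. The values rest on 560 to 924 estimated counts per Brg1 WT library and 298 to 383 per Brg1 cKO library. By p-value it was number 244 of the 16059 genes, and its fold change stood at percentile 90.4 of theirs in size.

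In the Brg1 WT libraries rich in pachytene and spermatid markers Chd5 had 23.7 and 22.2 CPM, against 28.2 and 22.8 CPM in the other Brg1 WT pair. With replicates 1 and 2 left out together its log2 fold change was -0.80 (adjusted p = 0.032). In a bulk sample fewer cells of a type and less RNA per cell cannot be told apart, and the part of the germ cell markers' lower median in the fall was not tested. Measured against the pan-germ cell median as the level of no change, Chd5 was lower in Brg1 cKO, at a log2 fold change of -0.38 (adjusted p = 0.014). That median entered the fit as a fixed shift, so p-values taken against it leave out its own error. The other germ cell lists had lower medians. These were -0.57 and -0.52 for undifferentiated and differentiating spermatogonia, -0.58 for meiotic prophase and -1.27 for pachytene and spermatid genes. Chd5 was not tested against those levels. Of 5 neural markers listed because Chd5 is expressed in neurons, 4 were tested and none was called, with summed levels over the 5 of 176.1 to 212.4 CPM in Brg1 WT and 147.2 to 215.3 CPM in Brg1 cKO. Exons of Gm13645, on the opposite strand, overlap those of Chd5 in GENCODE M21, as exons of Gm26590 do for Chd8, and on the same strand Gm45872 overlaps Smarca5 and 1810026B05Rik overlaps Chd2. Reads from a shared stretch could be split between such genes, which makes these values uncertain. Libraries were made with a stranded kit, but the sources used here do not say whether the counting used strand.

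Chd7, the ATPase mutated in CHARGE syndrome and a regulator of developmental enhancers, was the other gene to fall. It had 31.6, 45.1, 40.7 and 38.8 CPM in Brg1 WT and 22.8, 29.8, 19.5 and 26.9 CPM in Brg1 cKO. The groups did not overlap, but the gap was narrow, between 31.6 CPM in Brg1 WT replicate 1 and 29.8 CPM in Brg1 cKO replicate 2. Mean levels of 39.0 ± 5.62 and 24.75 ± 4.50 CPM (SD, n = 4 each) gave a 1.58-fold fall, and the log2 fold change was -0.66 ± 0.15 (SE) with an adjusted p = 0.016. Chd7 varied more between libraries of a genotype than any other member, with coefficients of variation of 14.4% in Brg1 WT and 18.2% in Brg1 cKO against 3.05% to 11.3% for the other 9 genes. Its adjusted p became 0.0504 without Brg1 cKO replicate 1 and 0.066 without Brg1 WT replicates 1 and 2, at log2 fold changes of -0.62 and -0.68. Relative to the pan-germ cell median the difference was -0.31 (adjusted p = 0.096).

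**Figure D2:**
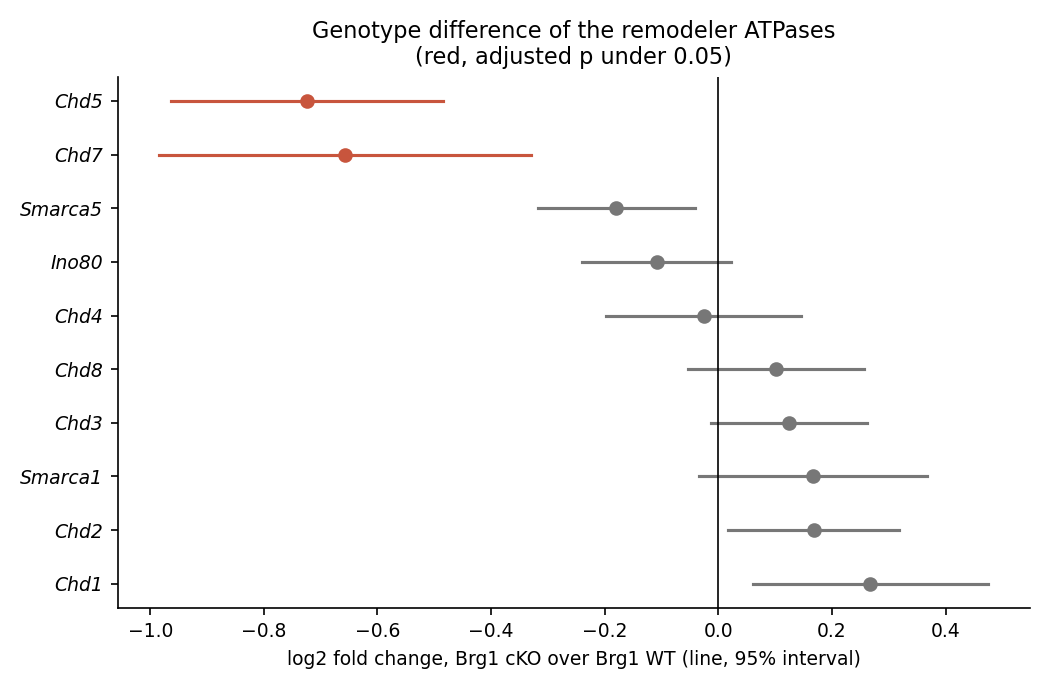
Log2 fold change of each gene (horizontal axis, Brg1 cKO over Brg1 WT) with its 95% interval from the edgeR fit, in red for an adjusted p under 0.05. Chd5 and Chd7 lie at -0.72 and -0.66, and the other 8 genes lie between -0.18 and 0.27.

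Chd8, the closest relative of Chd7 in the list and known for its mutation in autism, had 261.6, 249.2, 278.5 and 281.8 CPM in Brg1 WT and 288.8, 274.8, 270.7 and 315.3 CPM in Brg1 cKO. The ranges overlapped, and the log2 fold change of 0.10 had a 95% interval from -0.053 to 0.26 (adjusted p = 0.31). Within a library the ratio of Chd7 to Chd8 in plain CPM does not depend on how libraries are scaled. Here, as for every paralog ratio below, 0.5 CPM was added to each gene first, which leaves a slight dependence. The ratio so taken was 0.122, 0.183, 0.148 and 0.139 in Brg1 WT and 0.0807, 0.110, 0.0739 and 0.0866 in Brg1 cKO, with no overlap. It was 1.69-fold lower in Brg1 cKO (log2 difference -0.75), with p = 0.0286 in an exact two-sided permutation test over 70 assignments, the smallest p this design can give. Adjusted over the 5 paralog pairs compared, the exact p was 0.0714, which misses the threshold. The smallest p passes this adjustment only if more of the 5 pairs reach it than did here. The miss therefore does not show that a ratio was unchanged.

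The NuRD motors Chd3 and Chd4 did not pass the test. Chd4, the main one in most tissues, had 643.2, 659.8, 718.1 and 743 CPM in Brg1 WT and 668.9, 658.2, 640.4 and 747.8 CPM in Brg1 cKO. The groups lay over each other, with a log2 fold change of -0.026 and a 95% interval from -0.20 to 0.15 (adjusted p = 0.83). Chd3 had 324.7, 323.2, 332.3 and 349.3 CPM in Brg1 WT and 354.3, 339.7, 387.3 and 367.7 CPM in Brg1 cKO. All Brg1 cKO values but that of replicate 2 were above the Brg1 WT range, and the log2 fold change was 0.12 with an interval from -0.013 to 0.26 (adjusted p = 0.17).

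Because Chd3, Chd4 and Chd5 take the same place in NuRD, their shares were compared per kb of coding length. Chd4 made up 66.3% to 68.0% of their summed level per kb in Brg1 WT and 63.0% to 67.5% in Brg1 cKO, and Chd3 29.4% to 31.3% and 31.0% to 35.6%. Chd5 was a minor part in all libraries, 2.33% ± 0.25 in Brg1 WT and 1.40% ± 0.059 in Brg1 cKO (SD, n = 4 each). The ratio of Chd5 to Chd4, with 0.5 CPM added to each, was 0.0313 to 0.0400 in Brg1 WT and 0.0211 to 0.0237 in Brg1 cKO. That was 1.60-fold lower without overlap (exact permutation p = 0.0286, adjusted p = 0.0714 over the 5 pairs). For Chd3 to Chd4 the ratio was 0.463 to 0.505 in Brg1 WT and 0.492 to 0.605 in Brg1 cKO, a log2 difference of 0.15 with overlap (exact permutation p = 0.0571, adjusted p = 0.0714).

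**Figure D3:**
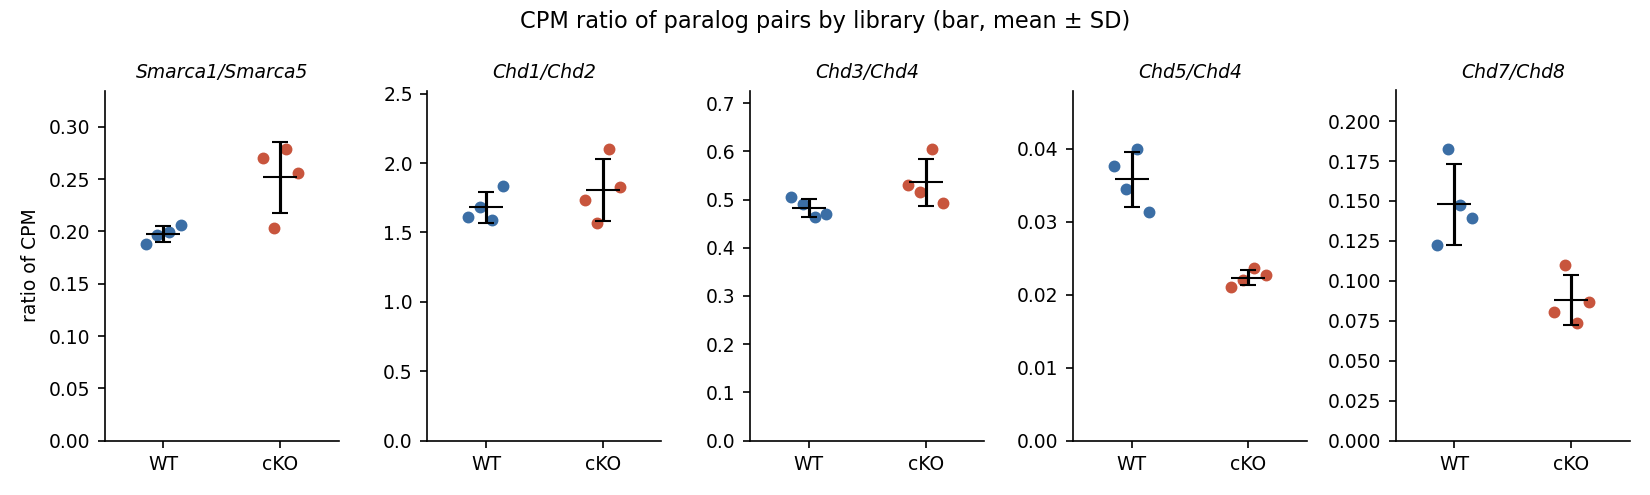
Ratio of the CPM of paralog pairs (vertical axis, from 0) in each Brg1 WT (blue) and Brg1 cKO (red) library, with the mean and SD in black. To each CPM 0.5 was added before the ratio was taken. The ratios of Chd5 to Chd4 and of Chd7 to Chd8 do not overlap between the genotypes, and those of the other 3 pairs do.

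Smarca5 encodes SNF2H, the ISWI motor of the ACF, CHRAC, RSF and WICH complexes. It had 521.1, 488.6, 529.7 and 547.8 CPM in Brg1 WT and 465.1, 478.1, 436.6 and 463.4 CPM in Brg1 cKO. All Brg1 cKO values were below all Brg1 WT values. The means of 521.8 ± 24.8 and 460.8 ± 17.4 CPM (SD, n = 4 each) differed by -0.18 ± 0.062 on the log2 scale (SE), and the edgeR adjusted p = 0.065 missed the threshold. DESeq2 gave an adjusted p = 0.020 for nearly the same difference, -0.17. The sign depended on the level taken as no change, since relative to the pan-germ cell median Smarca5 was higher, at 0.17 (edgeR adjusted p = 0.0425).

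Smarca1, its X-linked paralog SNF2L, the motor of the NURF complex, had 97.5, 95.7, 105.3 and 112.6 CPM in Brg1 WT and 125.2, 96.8, 121.4 and 118.0 CPM in Brg1 cKO. Brg1 cKO replicates 1, 3 and 4 lay above the Brg1 WT range and replicate 2 within it, and the estimate was 0.17 ± 0.089 on the log2 scale (SE, adjusted p = 0.21). Without Brg1 cKO replicate 2 the difference was 0.24 and passed the test (adjusted p = 0.037). Among the Brg1 cKO libraries replicate 2 also had the highest summed pan-germ cell level, 2196 CPM, and the lowest summed Sertoli level, 3127 CPM, and the part of that makeup in the result was not tested. The ratio of Smarca1 to Smarca5 was 0.188 to 0.206 in Brg1 WT and 0.270, 0.203, 0.279 and 0.255 in Brg1 cKO replicates 1 to 4. It was 1.27-fold higher on average in Brg1 cKO, with overlap through replicate 2 (exact permutation p = 0.0571, adjusted p = 0.0714 over the 5 pairs). Smarca5 accounted for 83.7% ± 0.53 of the pair's level per kb of coding length in Brg1 WT and 80.1% ± 2.20 in Brg1 cKO (SD, n = 4 each).

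Chd1, which binds the H3K4me3 mark of active promoters, had 127.5, 140.2, 143.7 and 155.4 CPM in Brg1 WT and 173.7, 142.5, 183.2 and 183.1 CPM in Brg1 cKO. As with Smarca1, Brg1 cKO replicate 2 fell inside the Brg1 WT range and the other 3 above it. The log2 fold change was 0.27 ± 0.093 (SE), the largest positive value among the 10, with an edgeR adjusted p = 0.067. It passed by DESeq2 (0.28, adjusted p = 0.030) and by edgeR without Brg1 cKO replicate 2 (0.35, adjusted p = 0.013). Chd2, its closest relative, had 79.1, 83.0, 90.0 and 84.3 CPM in Brg1 WT and 100.1, 90.8, 86.9 and 100.1 CPM in Brg1 cKO, with overlap and an estimate of 0.17 ± 0.067 on the log2 scale (SE, adjusted p = 0.10). The ratio of Chd1 to Chd2 overlapped widely, at 1.59 to 1.84 in Brg1 WT and 1.57 to 2.10 in Brg1 cKO (exact permutation p = 0.40, adjusted p = 0.40).

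Ino80 had 80.5, 85.2, 82.1 and 79.5 CPM in Brg1 WT and 77.0, 75.3, 70.2 and 81.1 CPM in Brg1 cKO. Only Brg1 cKO replicate 4 reached into the Brg1 WT range, and the log2 fold change of -0.11 had an interval from -0.24 to 0.023 (adjusted p = 0.21). Signs of the small differences of the members not called depended on the reference level. With the pan-germ cell median as no change the median of all genes moved to 0.36 and all 8 of them were called higher, and with the Sertoli median it moved to -0.37 and 6 of the 8, Smarca5, Chd2, Chd3, Chd4, Chd8 and Ino80, were called lower, while Smarca1 and Chd1 turned to -0.21 and -0.11 without a call.

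**Figure D4:**
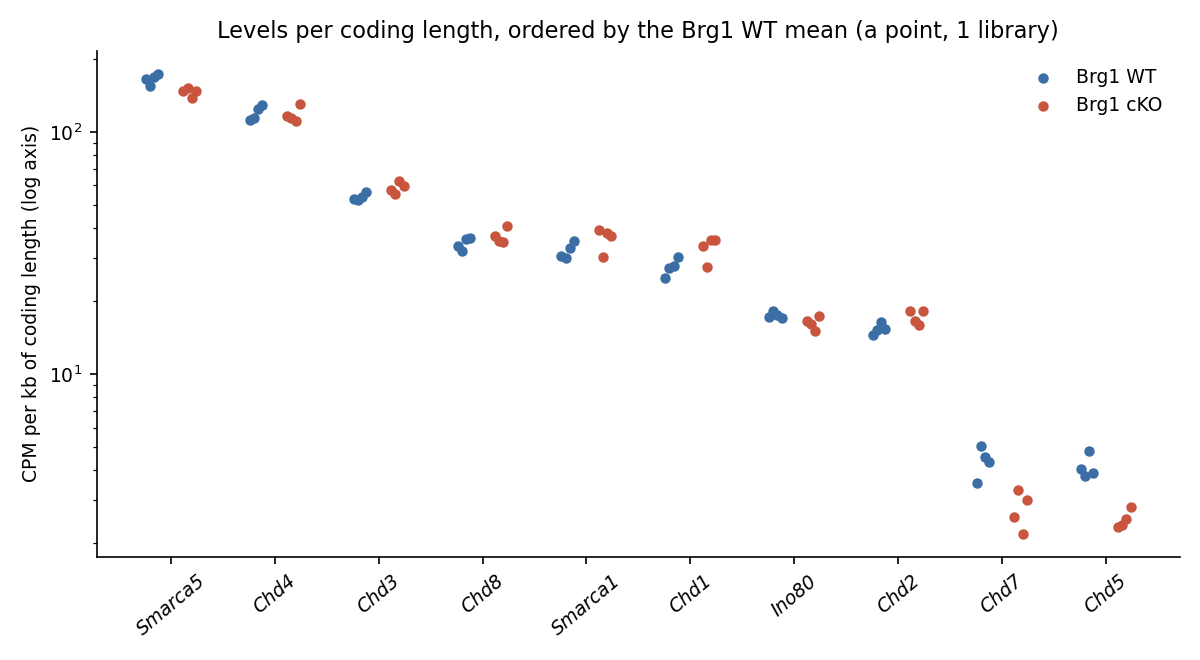
Level of each ATPase gene per kb of coding length (vertical log axis, CPM per kb) in each Brg1 WT (blue) and Brg1 cKO (red) library, 1 point a library, ordered by the Brg1 WT mean. Levels span from 165 CPM per kb for Smarca5 to 4.14 CPM per kb for Chd5 in Brg1 WT.

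Per kb of coding length, Smarca5 and Chd4 led, with 165.5 ± 7.86 and 119.8 ± 8.19 CPM per kb in Brg1 WT (SD, n = 4). Chd3 followed at 53.9 ± 1.94, Chd8 at 34.6 ± 1.96, Smarca1 at 32.3 ± 2.44 and Chd1 at 27.6 ± 2.24 CPM per kb. Ino80 and Chd2 had 17.5 ± 0.53 and 15.3 ± 0.82 CPM per kb, and Chd7 and Chd5 had 4.36 ± 0.63 and 4.14 ± 0.47 CPM per kb. In this order the Brg1 WT ranges of Chd8 and Smarca1 overlapped, as did those of Smarca1 and Chd1 and of Chd7 and Chd5, while each other neighbouring pair was separated. The order in Brg1 cKO was the same but for Ino80 and Chd2, which had 16.2 ± 0.97 and 17.2 ± 1.22 CPM per kb there. Both genes that fell were thus the least abundant of the 10 on this scale. Per kb of whole transcript, Chd4 came before Smarca5 and the other ranks stayed as they were. The shares given above depend on the length chosen. Per kb of whole transcript the Brg1 WT means were 85.4 for Smarca5 and 25.75 for Smarca1. On that scale they were 105.7 for Chd4, 45.8 for Chd3 and 2.56 for Chd5.

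By the likeness of their mean-centred log2 CPM over the 8 libraries, genes near to Chd5 among 10260 candidates were Morc4, a MORC family ATPase, and Rrm2, a subunit of ribonucleotide reductase. Their root mean square differences from Chd5 were 0.0848 and 0.0851 on the log2 scale, where the profile of Chd5 itself had a root mean square of 0.38. Morc4 had 11.3 to 14.3 CPM in Brg1 WT and 7.51 to 10.1 CPM in Brg1 cKO, and Rrm2 had 43.1 to 50.8 and 26.8 to 34.4 CPM. Each, like Chd5, was highest in Brg1 WT replicate 3 and, among the Brg1 cKO libraries, in replicate 4. Because they were chosen for likeness over these same libraries, the shared fall and peaks follow from the choice. No member was called higher, so no such search was made for a rise.

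Subunits that work with these ATPases were described in the same fit. Of 9 ISWI partners 2 fell, 2 rose and 5 were not called, with a median log2 fold change of -0.15. That is 44.4% called, against 20.6% of all genes tested and their median of 0.013. Baz1a, the ACF1 subunit that pairs with Smarca5, had 93.6, 85.2, 85.8 and 87.6 CPM in Brg1 WT and 66.5, 69.0, 61.8 and 59.9 CPM in Brg1 cKO, a 1.37-fold fall (log2 fold change -0.45 ± 0.063 SE, adjusted p = 0.0033). Cecr2, a bromodomain partner of ISWI motors with a known role in male fertility, had 167.5 to 191.4 CPM in Brg1 WT and 106.8, 142.0, 103.7 and 141.9 CPM in Brg1 cKO, a 1.44-fold fall (adjusted p = 0.014). Rsf1, the partner of Smarca5 in the RSF complex, rose from 124.2 ± 4.02 to 150.3 ± 10.2 CPM (SD, n = 4 each, adjusted p = 0.016). The rise of Rsf1 turned to -0.10 relative to the Sertoli median and its adjusted p was 0.0505 without Brg1 cKO replicate 1. Baz2b, the fourth called gene of this list, was 1.28-fold higher (adjusted p = 0.033). It lost its call when any of Brg1 WT replicates 1 or 2 or Brg1 cKO replicates 1, 3 or 4 was left out. Its log2 fold change of 0.35 was smaller than the Sertoli median of 0.38. Against the pan-germ cell median the differences of Baz1a and Cecr2 were -0.11 and -0.18 and neither was called (adjusted p = 0.18 and 0.20).

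Of 12 NuRD subunits, the partners of Chd3, Chd4 and Chd5, 1 fell, 11 were not called and none rose, at a median of -0.0039 and with 8.33% called against 20.6% of all genes. Hdac1, a histone deacetylase, had 113.5 to 122.4 CPM in Brg1 WT and 97.9 to 107.5 CPM in Brg1 cKO, a 1.15-fold fall (adjusted p = 0.029) that was a difference of 0.14 against the pan-germ cell median. It lost its call when any of Brg1 WT replicates 1, 2 or 3 or Brg1 cKO replicates 1 or 3 was left out (adjusted p = 0.060 to 0.085). Of 14 INO80 subunits 1 rose, none fell and 13 were not called, or 7.14% called, with a median of -0.078. That gene, Ino80d, had 94.0 to 102.5 CPM in Brg1 WT and 110.4, 111.4, 113.4 and 132.4 CPM in Brg1 cKO (1.17-fold, adjusted p = 0.047), and -0.15 against the Sertoli median. Its call was lost without any single library other than Brg1 cKO replicate 2 (adjusted p = 0.068 to 0.0955).

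**Figure D5:**
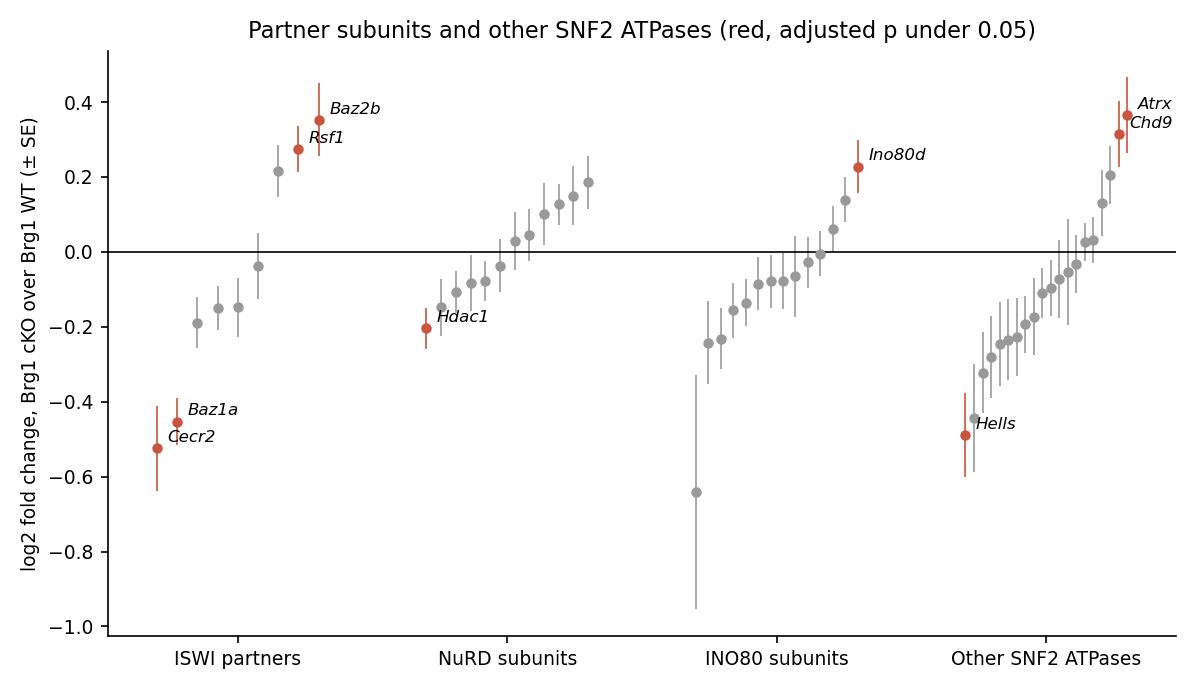
Log2 fold change (vertical axis, Brg1 cKO over Brg1 WT, with SE) of the ISWI partners, NuRD subunits, INO80 subunits and other SNF2 ATPases, 1 point a gene, in red where the adjusted p was under 0.05. Called genes are named: 4 of 9, 1 of 12, 1 of 14 and 3 of 20.

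Among 20 other ATPases of the SNF2 superfamily 1 fell, 2 rose and 17 were not called, or 15% called against 20.6% of all genes, with a median of -0.10. Hells, also called LSH, a remodeler needed for DNA methylation, had 346.4, 307.9, 324.9 and 334.1 CPM in Brg1 WT and 206.7, 282.0, 194.7 and 251.9 CPM in Brg1 cKO, a 1.40-fold fall (log2 fold change -0.49 ± 0.11 SE, adjusted p = 0.017). It was lowest in Brg1 cKO replicates 1 and 3, where the summed pan-germ cell level was lowest too, at 1687 and 1668 CPM, and the part of that makeup was not tested. Without Brg1 cKO replicate 1 its adjusted p was 0.054, and against the pan-germ cell median the difference was -0.14 and not called (adjusted p = 0.30). Atrx, which deposits histone H3.3 with DAXX, was 1.29-fold higher (180.4 to 245.3 against 261.8 to 305.1 CPM, adjusted p = 0.032), and Chd9 was 1.24-fold higher (31.2 to 34.5 against 35.6 to 46.4 CPM, adjusted p = 0.033). Relative to the Sertoli median both turned negative, to -0.013 and -0.064. Atrx lost its call without Brg1 WT replicates 1 or 2 or Brg1 cKO replicates 1, 3 or 4 (adjusted p = 0.056 to 0.084), and Chd9 without any single library but Brg1 cKO replicate 2 (adjusted p = 0.055 to 0.079). With Brg1 WT replicates 1 and 2 left out together 1 ISWI partner, Baz1a, was called and none of the NuRD subunits, INO80 subunits and other SNF2 ATPases. Chd6, the remaining CHD gene besides the DNA repair factor Chd1l, had 227.7 ± 16.9 and 222.8 ± 18.3 CPM (SD, n = 4 each, adjusted p = 0.80).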

How the data were processed

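RNA-seq was done on 4 Brg1 WT and 4 Brg1 cKO samples at P12, grouped and numbered by sample title. The authors deposited estimated counts per gene symbol, not scaled for depth or length. Kallisto 0.42.5, edgeR and the build mm9 are named in the submitters' processing notes, and the sources used here do not give the annotation. Estimated counts were rounded, filtered with filterByExpr by genotype (16059 genes left), scaled with TMM and tested with the edgeR 4.0.16 robust quasi-likelihood test (R 4.3.3), genotype the only term. Its p-values weigh the genotype difference against the spread among these 8 samples within genotypes, moderated over all genes tested. The fit was tested on simulated data with known changes.

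Standard errors are the absolute log2 fold change over the square root of F. The log2 CPM values used to compare profiles have a prior count of 2. Paralog ratios (CPM prior 0.5) were compared with exact permutation tests in scipy 1.17.1. Lengths came from GENCODE M21, since no table of protein lengths was used. The members and lists were chosen with earlier results of these data known. Named were all 10 members, Smarca4, up to 3 called genes per partner list with the smallest adjusted p, and the 3 genes nearest to the called member with the largest fall (average log2 CPM of at least 3, no Gm or Rik symbol). A gene that met this rule is not reported here. Baz2b and Chd6 were named after their values were seen. Emr1 stood for Adgre1. Alternatives were DESeq2 1.42.0, limma-voom (limma 3.58.1), RLE and upper-quartile factors, other filters, libraries left out, a replicate block and other reference levels. The pan-germ cell and Sertoli medians were entered as fixed shifts, so calls and p-values relative to them leave out the error of the medians. Removing Trim2 and mitochondrial transcripts, and transcript length, were chosen after seeing the data.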

Additional observations from a re-analysis of the deposited data

Results flagged for a closer look

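Ino80d stood out in Brg1 cKO replicate 4, at 132.4 CPM against 110.4 to 113.4 CPM in the other 3 Brg1 cKO libraries. The gap to its nearest neighbour was 0.864 of the group's range, above Dixon's critical value at the 95% level for 4 samples. In all 54 groups of 4 values were examined, and chance flags about 1 in 20 of them. Without that library the log2 fold change of Ino80d was 0.16 in place of 0.23.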

How the results depend on the processing

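With the 10 genes few and their differences small, which of them pass depends on the libraries and on the level taken as no change. Chd5 had the fewest counts of the 10, 298 to 924 per library, and the CPM of Chd7 varied more between libraries of a genotype than that of the other members (coefficients of variation of 14.4% and 18.2%). Chd5 was called lower under all 19 alternatives, and Chd7 under 16. Leaving out 1 library at a time gave 1608 to 3477 genes called in place of 3312, 1 to 4 members in place of 2, 2 to 6 ISWI partners in place of 4, 0 to 2 NuRD subunits and 0 to 2 INO80 subunits in place of 1 each, and 0 to 7 other SNF2 ATPases in place of 3. The same omissions gave log2 differences of 0.29 to 0.44 for Smarca1/Smarca5, 0.022 to 0.16 for Chd1/Chd2, 0.089 to 0.19 for Chd3/Chd4, -0.74 to -0.62 for Chd5/Chd4 and -0.87 to -0.65 for Chd7/Chd8, values with no test, since 4 against 3 libraries cannot reach the threshold. Without Brg1 WT replicates 1 and 2, 438 genes, 1 member, 1 ISWI partner and 0 of the other 3 lists were called. DESeq2 called 4 members, 2 NuRD subunits and 6 other SNF2 ATPases, and limma-voom, upper-quartile factors and no filter each called 0 INO80 subunits. With the pan-germ cell median as no change 8863 genes, 9 members, 12 NuRD subunits, 10 INO80 subunits and 10 other SNF2 ATPases were called, and with the Sertoli median 8567, 8, 12, 13 and 17. Of all calls 57.4% were lower, against 50% with DESeq2, 6.53% with the pan-germ cell and 99.2% with the Sertoli median, and 78.1% without Brg1 WT replicates 1 and 2. Signs turned relative to the pan-germ cell median for Smarca5 (0.17), Chd4 (0.32), Ino80 (0.24) and Hdac1 (0.14), and relative to the Sertoli median for Smarca1 (-0.21), Chd1 (-0.11), Chd2 (-0.21), Chd3 (-0.25), Chd8 (-0.28), Rsf1 (-0.10), Ino80d (-0.15), Atrx (-0.013) and Chd9 (-0.064), which the shift of the reference level itself brings about.

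With the replicate number as a block (replicate block), 1914 genes were called, Chd5 and Chd7 remained the members called, and 0 NuRD and 0 INO80 subunits, 3 ISWI partners and 2 other SNF2 ATPases were called. The calls of Baz2b, Hdac1, Ino80d and Chd9 were lost (adjusted p = 0.076 for Hdac1, 0.075 for Ino80d and 0.073 for Chd9). Same-numbered libraries correlated in their deviations from the group means at -0.21, 0.13, -0.37 and 0.15 for numbers 1 to 4, and 3 of 8 libraries correlated best with their own number, so the numbers were not taken to pair the samples.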
